A study of Mus musculus with 80 samples.

Results

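The 9 genes described here, Mbp, Mobp, Mag, Mog, Cnp, Gfap, Slc1a2, Slc1a3 and Aldoc, are markers of myelinating glia and of astrocytes, 9 of the 21938 protein-coding genes of the GENCODE M21 annotation (mm10). They were chosen by name, from an earlier look at these same peak lists in which exons of brain genes carried RXR ChIP-Seq peaks in the KO livers, so the contrast between genotypes is a description here and carries no test. For each gene, each deposited peak interval that overlapped the gene body was taken from the 40 ChIP libraries. The values are its exon or intron position, its fold enrichment and the number of livers in which it was called. Fold enrichment is the value the peak caller wrote for the summit tag pileup against the local level expected from that liver's input. At the low KO pileups here it was not proportional to the number of tags, as given below. A gene counted as called in a liver when a peak summit lay in 1 of its exons.

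The libraries were made from livers of male C57BL6/J mice, aged 5 months, that had been fed for 12 weeks. WT mice came from a commercial C57BL6/J colony. KO mice carried a floxed PPARγ gene and Cre driven by the albumin promoter, which is active in hepatocytes. The deletion was thus aimed at hepatocytes, and which other liver cells kept PPARγ was not tested here. The WT mice were not floxed littermates. Each genotype had 4 groups of 5 livers: Control (unsupplemented control diet), Pio (control diet with pioglitazone, a PPARγ agonist drug), HFD (high-fat diet) and HFD-Pio (high-fat diet with pioglitazone). The study asked how Pio and HFD change the binding of RXR, the nuclear receptor that pairs with PPARγ on DNA, in liver. The labels name an RXR antibody for the 20 WT and the 5 KO Control samples and none for the other 15 KO ChIP samples, although their titles call them RXR ChIP.

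Myelin is the membrane sheath that oligodendrocytes in the brain, and Schwann cells in nerves, wrap around axons. Mbp and Mobp encode proteins that hold the compact layers of the sheath together, Mag and Mog encode adhesion and surface proteins of its inner and outer faces, and Cnp encodes an enzyme of its uncompacted parts. Astrocytes clear glutamate from synapses through the transporters encoded by Slc1a2 and Slc1a3, hold a cytoskeleton of the intermediate filament protein encoded by Gfap, and express the brain form of the glycolytic enzyme aldolase, encoded by Aldoc. In liver, Slc1a2 is also known from the hepatocytes next to the central vein, and Gfap has been used to mark stellate cells.

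The KO libraries differed from the WT libraries in depth and in the genes that carried exonic peaks. They kept 0.628 to 1.06 Mtags (mega-tags) of ChIP, against 2.04 to 4.26 Mtags in WT, yet held 7630 to 30437 peaks against 579 to 33705, and 2608 to 6662 genes with an exonic peak per library against 17 to 3436. WT lists had been called at a p-value cutoff of 0.001 and KO lists at a q-value cutoff of 0.05. The fragment length the peak caller used was 45 to 48 bases in WT Pio replicates 2, 3 and 5 and WT HFD-Pio replicates 1, 4 and 5. It was 169 to 292 in the other WT libraries and 119 to 168 in KO. The WT exonic calls of Cnp and Aldoc below came from libraries with the short length, that of Slc1a2 did not, and its part was not tested. Of 10 genes that define hepatocytes, 9, among them Alb, Apoa1, Apob and Cyp2e1, had no exonic peak in any KO liver. In WT, 5 of the 10 had an exonic peak in some liver, but none reached 3 of 5 livers in Control or HFD and 1 did so in Pio and in HFD-Pio. Of all protein-coding genes, 51.1% had an exonic peak in no KO liver. The exception among the hepatocyte genes, Ttr, was called in 20 of 20 KO livers and is also abundant in the choroid plexus of the brain. Each of the 18 neuronal genes had an exonic peak in 16 to 20 of the 20 KO livers. These lists describe where peaks lay, not how much RNA was made, and their part in the results below was not tested. In bulk samples, more cells of a type and more signal per cell cannot be told apart. Whether the material of the KO libraries was RXR-bound liver chromatin was not tested, and the KO fold enrichments are given as peak values only.

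Most KO peaks of Slc1a3, Slc1a2 and Aldoc lay in exons, which was not so of Cnp, Mog or Mbp, nor of the 9 genes in WT, where most summits were intronic. Of the 99 KO summits in Cnp, however, 92 lay in an exon of the overlapping gene Dnajc7. Mog and Mbp held only 6 and 2 KO summits. The exon share of KO summits over all genes is not given here, so it is not known whether these 3 genes stand out. The stretches below show recurrent sites on the strand of the gene named, with its exon bases in capitals and intron bases in lower case. They are the mm10 reference on 120 bases each side of the strongest summit of a site that ran from a coding exon into intron. The first lies at chr11:78324544-78324784 (+ strand), over the start of exon 3 of Aldoc, in a site called in 18 KO and 0 WT livers. The second lies at chr15:8645744-8645984 (− strand), over exon 6 of Slc1a3, in a site called in 13 KO and 0 WT livers. The third lies at chr11:100584496-100584736 (− strand), inside Cnp but over exon 11 of Dnajc7, a chaperone gene on the opposite strand that overlaps the 3′ part of Cnp. That site was called in 20 KO and 2 WT livers.
Aldoc exon 3: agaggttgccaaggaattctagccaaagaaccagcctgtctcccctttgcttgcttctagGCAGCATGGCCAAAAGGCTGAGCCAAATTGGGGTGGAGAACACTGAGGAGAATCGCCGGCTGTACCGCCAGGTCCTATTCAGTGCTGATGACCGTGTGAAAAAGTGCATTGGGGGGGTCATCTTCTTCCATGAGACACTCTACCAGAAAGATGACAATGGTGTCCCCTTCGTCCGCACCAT
Slc1a3 exon 6: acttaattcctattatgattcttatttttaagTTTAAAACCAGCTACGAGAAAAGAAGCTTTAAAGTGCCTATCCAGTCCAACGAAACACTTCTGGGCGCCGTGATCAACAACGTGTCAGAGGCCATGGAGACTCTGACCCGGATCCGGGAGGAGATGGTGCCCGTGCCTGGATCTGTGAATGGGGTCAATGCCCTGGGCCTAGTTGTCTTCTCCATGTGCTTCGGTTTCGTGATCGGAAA
Dnajc7 exon 11, inside Cnp: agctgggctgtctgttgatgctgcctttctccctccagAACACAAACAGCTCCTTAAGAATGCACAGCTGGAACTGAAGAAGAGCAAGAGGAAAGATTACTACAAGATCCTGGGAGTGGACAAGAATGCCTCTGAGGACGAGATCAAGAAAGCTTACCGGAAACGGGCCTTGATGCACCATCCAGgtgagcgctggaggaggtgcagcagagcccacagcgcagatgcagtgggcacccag

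The 3 astrocyte genes Slc1a3, Slc1a2 and Aldoc were called in nearly all KO livers, the 4 myelin genes Mbp, Mobp, Mag and Mog in at most 1, Gfap in 1, and Cnp in 15, mostly through exons it shares with Dnajc7. Slc1a3 was called in 20 of 20 KO livers, Slc1a2 in 19 and Aldoc in 19, while in WT they were called in 0, 1 and 1 of 20. With a gene counted where 3 or more of the 5 livers called it, 3 of the 9 passed in KO Control and 4 of the 9 in each of KO Pio, KO HFD and KO HFD-Pio, against 0 of the 9 in each WT group. The share of all protein-coding genes that passed was 21.1% in KO Control, 26.1% in KO Pio, 22.8% in KO HFD and 24.2% in KO HFD-Pio. In WT the share was 0.0547% for Control, 6.39% for Pio, 0.0547% for HFD and 3.9% for HFD-Pio. With only 9 genes and membership set by name, nothing is read from their share against that background. When summits lying in exons of more than 1 protein-coding gene were left out, 3 of the 9 passed in each KO group.

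**Figure D1:**
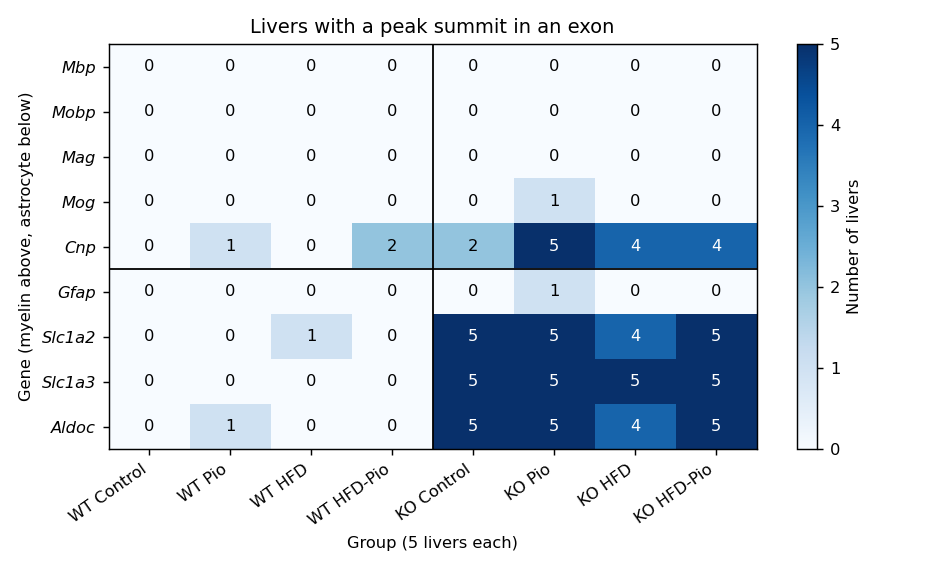
Number of livers, of 5 in each group, with a peak summit in an exon of the gene (colour and digit), for the 5 myelin genes above the line and the 4 astrocyte genes below it. Slc1a2, Slc1a3 and Aldoc stand at 4 or 5 in each KO group, Mbp, Mobp and Mag at 0 in all 8 groups, and nearly all KO calls of Cnp come from its overlap with Dnajc7.

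Slc1a3, which encodes a glutamate transporter of astrocytes, occupies chr15:8634124-8710764 on the − strand, with 8537 exon bases in 76641. In replicates 1 to 5 its strongest exonic peak had a fold enrichment of 4.72, 5.66, 6.57, 6.18 and 6.61 in KO Control. It was 5.64, 7.55, 3.75, 7.42 and 3.81 in KO Pio, 5.23, 6.32, 5.63, 7.09 and 5.55 in KO HFD, and 5.63, 5.66, 6.67, 6.65 and 7.38 in KO HFD-Pio. The 4 groups overlapped. KO Pio was the most spread, with 2 livers below and 2 livers above all KO Control livers. In order of their means the groups stood at 6.40 ± 0.748 (SD, n = 5) in KO HFD-Pio, 5.96 ± 0.745 in KO HFD, 5.95 ± 0.786 in KO Control and 5.63 ± 1.85 in KO Pio, so that each pair of neighbours differed by less than 1 SD. No WT liver had an exonic peak, and 3 WT livers had an intronic one, at 3.64 to 4.47.

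Of the 154 peak summits that the KO livers placed in the body of Slc1a3, 119 lay in an exon, 56 of them in coding sequence and 55 in the 3′ UTR. Exons make up 11.1% of the gene body and held 77.3% of its KO summits. Per kilobase and library this is 0.697 exonic against 0.0257 intronic summits. Along the longest coding transcript, 8 of 10 exons held a KO summit. The last exon, which holds the 3′ UTR, did so in 20 livers, exon 6 in 13, exon 7 in 10, exons 2, 4 and 8 in 6 each, exon 3 in 4 and exon 9 in 3. The first exon and the short exon 5 held none. With overlapping intervals joined into sites and each site placed by its strongest summit, 11 KO sites were exonic, of which 1 was seen in a single liver. A further 26 were intronic, of which 22 were seen in a single liver and none in more than 3. The most frequent site, chr15:8634240-8635910, lay wholly in the 3′ UTR and was called in all 20 KO livers.

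Slc1a2 encodes the main glutamate transporter of astrocytes and occupies chr2:102658659-102790784 on the + strand, with 13133 exon bases in 132126. Its strongest exonic peak had a fold enrichment of 3.78, 4.72, 4.38, 3.57 and 5.67 in KO Control, replicates 1 to 5. It was 4.20, 6.60, 4.68, 6.49 and 3.81 in KO Pio, and 3.75, 5.66, 5.72, 5.52 and 4.37 in KO HFD-Pio. In KO HFD it was 3.68, 2.88, 4.69 and 4.67 in replicates 1 to 4, and replicate 5 had no exonic peak. The KO groups overlapped. The 1 exonic peak in WT was in WT HFD replicate 1, at 4.61.

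Of 104 KO summits in Slc1a2, 102 lay in an exon and 93 of these in the last exon, a 3′ UTR for nearly all of its 9322 bases. That exon makes up 80.4% of the exon bases of the transcript and held 91.2% of its KO exonic summits. Of the other 10 exons, 6 held a summit, in 1 or 2 livers each. Intron held 2 KO summits over the whole gene, or 0.00084 per kilobase and library, against 0.388 in exons. The most frequent site, chr2:102788530-102789936, was called in 13 KO livers, and a typical KO library held 5 separate exonic intervals in this gene, the highest count being 12.

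Aldoc, the gene of brain aldolase, is compact, at chr11:78322968-78327781 on the + strand, with 3263 exon bases in 4814. Its strongest exonic peak had a fold enrichment of 3.76, 6.58, 5.25, 4.57 and 8.19 in KO Control, replicates 1 to 5. It was 4.59, 6.60, 6.56, 9.28 and 6.66 in KO Pio, and 4.71, 5.32, 5.72, 7.48 and 4.37 in KO HFD-Pio. In KO HFD it was 7.08, 5.42, 7.65 and 6.04 in replicates 1 to 4, with none in replicate 5. The KO groups overlapped, and in WT the gene was called once, in WT Pio replicate 3, at 2.73. Of 57 KO summits 54 were exonic, 37 in coding sequence and 17 in the 3′ UTR. Exons make up 67.8% of this gene, so 94.7% of summits in exons is a smaller excess than in the transporters. The most frequent sites were chr11:78324303-78325486 (18 KO livers) and chr11:78325567-78326814 (17 KO livers and 1 WT liver). Coding exon 3 held a summit in 14 KO livers, exon 7 in 9 and the last exon in 17.

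**Figure D2:**
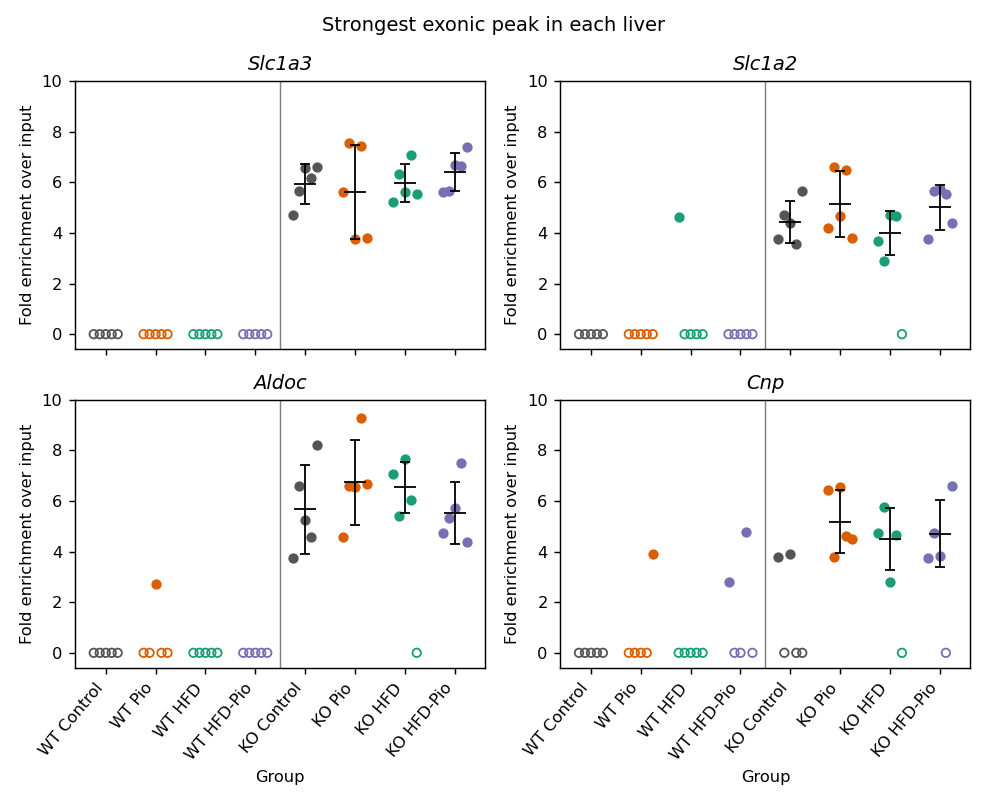
Fold enrichment over input of the strongest exonic peak in each liver (filled points, 5 livers per group; open points at 0 are livers with no exonic peak), with the mean ± SD of the called livers where 3 or more were called. In the KO groups Slc1a3, Slc1a2 and Aldoc lie between 2.88 and 9.28 with overlapping groups, and the open point of KO HFD is the same liver, replicate 5, for Slc1a2, Aldoc and Cnp.

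**Figure D3:**
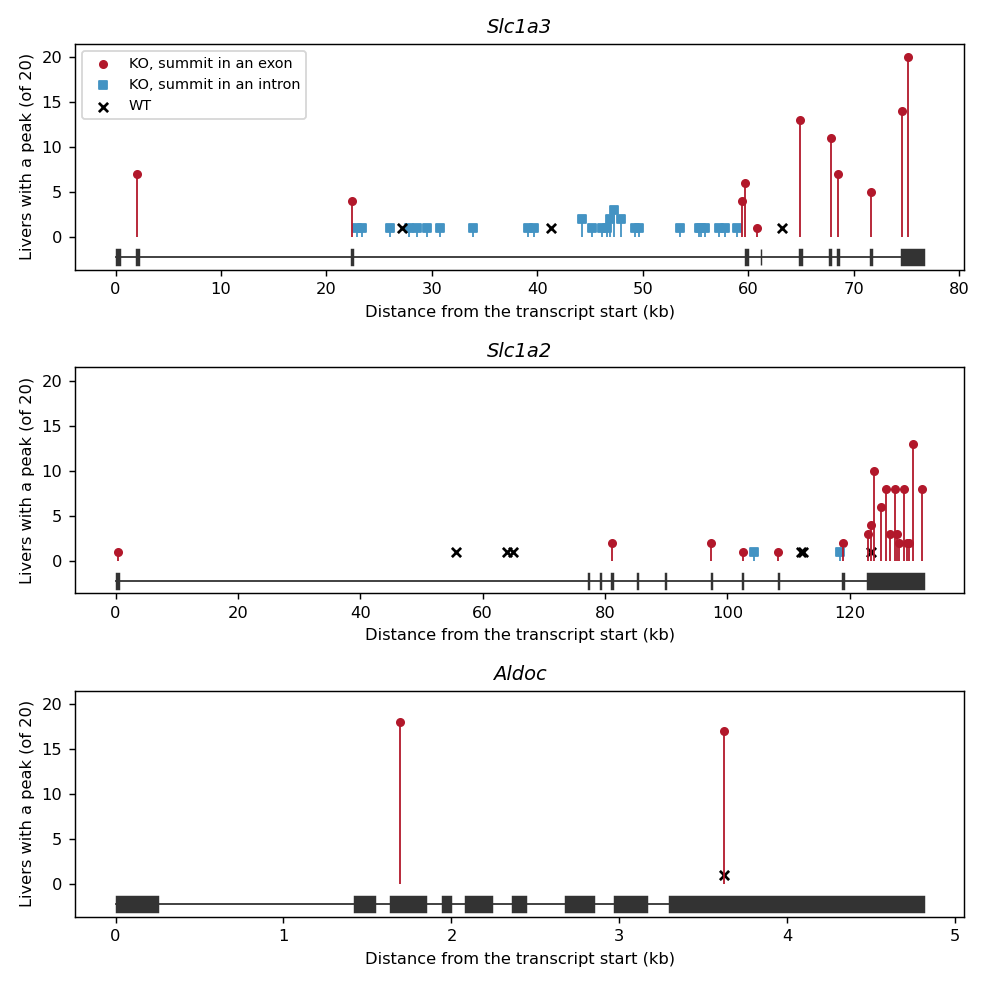
Peak sites along Slc1a3, Slc1a2 and Aldoc: the height of each stem is the number of KO livers (of 20) with a peak at the site, crosses give the WT livers (of 20), and the boxes below are the exons of the longest coding transcript, against distance from its start in kilobases. The tall stems sit over exons, up to 20 livers over the last exon of Slc1a3, while intronic sites of the same genes reach at most 3 KO livers.

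Gfap, the astrocyte filament gene at chr11:102887336-102900912 (− strand), did not share the pattern of the other 3 astrocyte genes. It had a coding-exon peak in KO Pio replicate 3 only, with a fold enrichment of 2.81 on a pileup of 2 tags, and in WT a single intronic peak, in WT HFD replicate 1, at 4.61. The intronic peak lay at chr11:102892016-102892257. The exons of Gfap span 4218 bases and those of Aldoc 3263, and the part of exon length in the calls was not tested.

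Of the 5 myelin genes, Mbp, Mobp and Mag had no exonic peak in any liver, Mog had 1 in KO, and Cnp is described below. Among all protein-coding genes, 51.1% had an exonic peak in no KO liver, so 3 of 5 is near that share. Mbp (chr18:82475146-82585637), with 8469 exon bases, had no exonic summit in any of 40 livers; its 6 WT and 2 KO intervals were intronic, each in a single liver, the strongest at chr18:82516917-82516968 (4.60, WT). Mobp (chr9:120149707-120181484) had 2 intronic intervals in 1 WT liver, the stronger at chr9:120172876-120173059 (4.23), and none in KO, and Mag (chr7:30899176-30914873) had 1 intronic interval in WT, at chr7:30914014-30914204 (4.56), and none in KO. Mog (chr17:37010743-37023398) had 6 KO intervals in 5 livers, of which 1, in KO Pio replicate 4, lay in the 3′ UTR, at a fold enrichment of 2.78 on 2 tags. Its most frequent interval, in an intron at chr17:37013692-37013938, was called in 2 KO livers. Per kilobase of exon and library, Mog had 0.0293 and Gfap 0.0119 KO summits, against 0.388 to 0.827 for Slc1a2, Slc1a3 and Aldoc. A gene with no peak here was not detectable at this depth, which does not show that it had no signal.

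Cnp (chr11:100574904-100591729, + strand) had an exonic peak in 2 KO Control, 5 KO Pio, 4 KO HFD and 4 KO HFD-Pio livers, and in 1 WT Pio and 2 WT HFD-Pio livers. In KO Pio, replicates 1 to 5, the fold enrichment was 6.44, 3.77, 6.56, 4.60 and 4.50. These calls cannot be assigned to Cnp. The longest coding transcript of Cnp ends at chr11:100581728, but its annotated body runs on into Dnajc7 (chr11:100582818-100620168, − strand). Of the 99 KO summits in the body of Cnp, 97 lay inside Dnajc7 and 92 in an exon of Dnajc7. The 14 summits in exons of both genes lay in a non-coding exon of a Cnp transcript and in a coding exon of Dnajc7. Outside Dnajc7, Cnp held 2 KO summits, 1 in a coding exon and 1 in its 3′ UTR, each in a single liver, at 3.66 and 2.82. Over the whole body of Cnp the strongest peak reached 15.02, in KO HFD replicate 3, and it too was in a Dnajc7 exon.

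**Figure D4:**
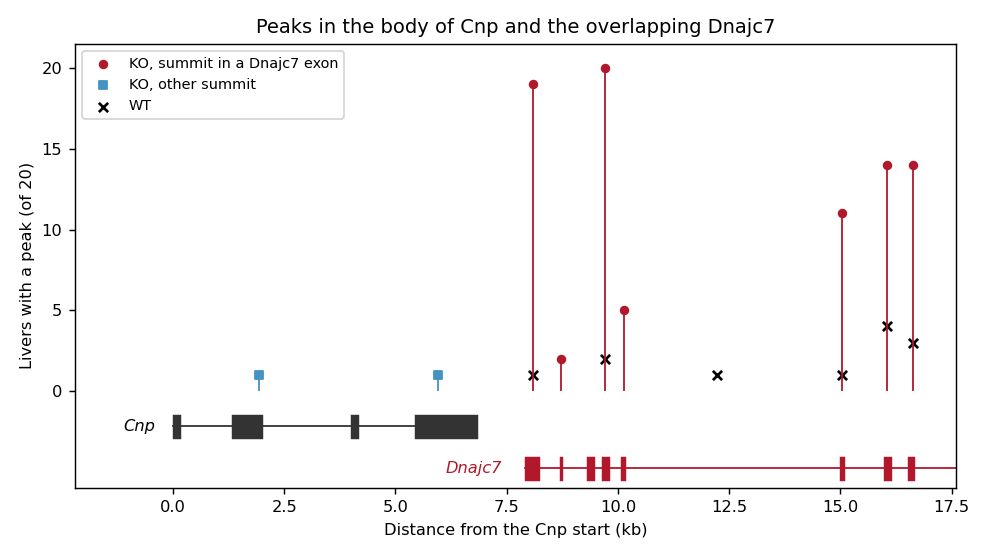
Peak sites in the body of Cnp: stems give the number of KO livers (of 20) with a peak, crosses the WT livers (of 20), and boxes the exons of the longest coding transcripts of Cnp and of Dnajc7, against distance from the Cnp start in kilobases. The recurrent sites, called in up to 20 KO livers, lie over Dnajc7 exons, and the 2 sites over Cnp exons outside Dnajc7 were each called in 1 liver.

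The fold enrichments rest on few tags. At the KO summits of the 9 genes the pileup ran from 2 to 15 tags with a median of 4. A pileup of 2 tags gave a median fold enrichment of 2.82, 3 tags 3.76, 4 tags 4.68 and 5 tags 5.61, so a difference of 1 tag moved the value by nearly 1. At 3 tags the fold enrichment ran from 3.36 to 3.84, so it mostly followed the tag count without being proportional to it. The strongest exonic peaks of Slc1a2 had 2 to 6 tags, of Slc1a3 3 to 7 and of Aldoc 3 to 9. In WT the 33 summits of the 9 genes had 2 to 6 tags, and 17 of them would pass a q-value of 0.05.

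The other marker lists are given beside the share of all protein-coding genes that reached 3 of 5 livers, 21.1% to 26.1% in the KO groups, and the 51.1% with an exonic peak in no KO liver. Of 13 other astrocyte genes, 9 in KO Control, 7 in KO Pio, 8 in KO HFD and 8 in KO HFD-Pio reached 3 of 5 livers, and 1 (in Pio) did so in any WT group. Sparcl1, a secreted matrix protein (mean fold enrichment of its called livers 12.4 ± 2.49), Fabp7, a fatty acid-binding protein of radial glia and astrocytes (10.3 ± 2.48), and Cst3, a protease inhibitor (9.84 ± 2.06), were each called in 20 KO livers, and Ndrg2, a stress-response gene (5.77 ± 1.23), in 17. Aqp4, the water channel of astrocyte endfeet, S100b, Gjb6 and Ntsr2 were called in 0. Of 13 other oligodendrocyte genes, 1 reached 3 of 5 livers in KO Pio and 1 in KO HFD-Pio, with 0 in the other KO groups and 0 in WT. The transcription factor gene Olig1 was called in 11 KO livers (3.95 ± 1.15). Olig2, another transcription factor gene of this lineage, was called in 3 KO livers (3.68 ± 0.89), and 7 of the 13, Sox10 among them, in 0, a share near that of all genes. Of 6 genes of peripheral myelin, the myelin of Schwann cells, none reached 3 of 5 livers in a KO group. There, 4 were at 0, Scn7a was called in 1 KO liver and Pmp22 in 3 KO and 6 WT livers. Of 10 microglia and macrophage genes, 1 reached 3 of 5 livers in KO Control and 1 in KO Pio. The complement genes C1qb and C1qc were called in 6 and 4 KO livers, and Aif1 in 4 WT livers and no KO liver. Of 6 stellate cell and fibroblast genes, 3, 4, 3 and 4 reached 3 of 5 livers in KO Control, KO Pio, KO HFD and KO HFD-Pio, and 2 and 3 in WT Pio and WT HFD-Pio. Among these Reln, which neurons also express, was called in 20 KO livers, and the collagen genes Col1a1 and Col3a1 in 18 and 13. Of the hepatocyte genes other than Ttr, Pck1, an enzyme of glucose synthesis, was called most often, in 8 WT livers and no KO liver. Of all protein-coding genes, 7.45% had an exonic peak in each of the 20 KO livers.

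The neuronal genes were called in nearly every KO liver. Of the 5 myelin genes 3 had no exonic peak in any KO liver, a share near the 51.1% of all genes. Each of the 18 reached 3 of 5 livers in each KO group, and 1 of the 18 did so in WT Pio and 1 in WT HFD-Pio. The microtubule gene Tubb3 (44.4 ± 8.05), the growth cone gene Gap43 (25.6 ± 4.85) and the tubulin regulator gene Stmn2 (24.3 ± 4.51) were called in 20 of 20 KO livers, and the neuronal enolase gene Eno2 (5.21 ± 1.05) in 19. Over the 18 neuronal genes the median of the mean fold enrichments was 7.45, over the 4 astrocyte members 5.33, over the 3 of them called in 19 or 20 KO livers 5.99, and over all genes with an exonic peak in 10 or more KO livers 4.83. The means of these 3 were 4.68 for Slc1a2, 5.99 for Slc1a3 and 6.10 for Aldoc, so Slc1a2 lay below the 4.83 of all such genes. The sets behind these medians are unlike, since Gfap entered the value over the 4 with 1 liver and the set of all genes needed 10. On a scale that allows for length, the neuronal genes held 0.442 to 2.94 KO exonic summits per kilobase and library, with a median of 0.972. Slc1a3, at 0.697, and Aldoc, at 0.827, lay within that range and Slc1a2, at 0.388, below it. Mbp, Mobp and Mag held 0. Their exons span 4072 to 8469 bases and those of the neuronal genes 1523 to 16449, and the part of exon length was not tested. In each KO liver 15 to 18 of the 18 neuronal genes were called, beside 1 to 5 of the 9 glial genes. Cnp counts among those 9, although its calls cannot be assigned to it. Of all 21938 protein-coding genes, 2608 to 6662 were called per KO liver. The lists were compiled with earlier results of these data known, so these counts are a description.

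**Figure D5:**
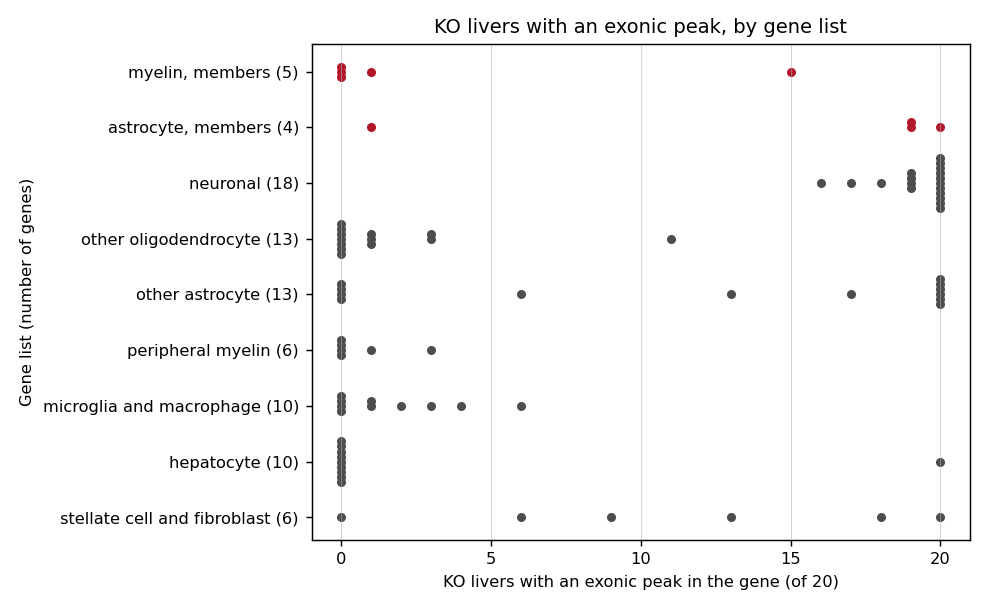
Number of KO livers (of 20, horizontal axis) with an exonic peak in each gene of the named lists, 1 point per gene, stacked where genes share a value; red points are the 9 member genes. The 18 neuronal genes lie between 16 and 20 livers, 3 of the 4 astrocyte members at 19 or 20, and 4 of the 5 myelin members at 0 or 1. Of all protein-coding genes, 51.1% were at 0.

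No difference in the exonic peaks of these genes between KO groups, with or without Pio or HFD, passed the test. The test was limma on the log2 fold enrichment of the strongest exonic peak, centred in each liver on the median of the genes tested, over genes with an exonic peak in all 10 livers, with Benjamini-Hochberg adjustment. For Pio on the control diet (KO Pio against KO Control) the log2 difference was −0.24 ± 0.179 (SE) for Slc1a3 with an adjusted p of 0.992 by limma, 0.10 ± 0.183 for Slc1a2 and 0.16 ± 0.184 for Aldoc, both also with an adjusted p of 0.992 by limma. For Slc1a3 it was 0.15 ± 0.162 in KO HFD-Pio against KO HFD, with an adjusted p of 0.987, and −0.05 ± 0.163 in KO HFD against KO Control, with an adjusted p of 0.988, both by limma. In KO HFD-Pio against KO Pio it was 0.35 ± 0.181 for Slc1a3 (adjusted p by limma 0.989), 0.08 ± 0.180 for Slc1a2 (adjusted p by limma 0.996) and −0.17 ± 0.183 for Aldoc (adjusted p by limma 0.995). The difference between the Pio effect on the HFD and that on the control diet was 0.40 ± 0.246 for Slc1a3, with an adjusted p of 0.931 by limma over 1634 genes.

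Across all genes limma called 0% in each of the 4 KO comparisons, over 1951, 2127, 1717 and 2762 genes, and 105, 96, 78 and 123 genes had an unadjusted p below 0.05. Counts of called livers, compared by Fisher's exact test, gave 0% in the same comparisons, over 6961, 6872, 6556 and 7208 genes, with an unadjusted p below 0.05 for 102, 45, 29 and 74 genes. It also called 0% for WT HFD against WT Control (13 genes, 0 at an unadjusted p below 0.05) and WT HFD-Pio against WT Pio (2097 genes, 2 at an unadjusted p below 0.05). The smallest p the test can give with 5 livers against 5 is 0.00794, which adjustment over this many genes did not let pass, so these counts of 0 say nothing about stability. Of the 9 genes, 4 could be tested in each KO comparison, Cnp included. The smallest unadjusted p of Fisher's exact test was 0.167, in KO Pio against KO Control. It was that of Cnp (5 against 2 livers), whose calls cannot be assigned to it. Among the 9 genes only Cnp could be tested in WT, in WT HFD-Pio against WT Pio (p = 1, Fisher's exact test).

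KO HFD replicate 5, with 8311 peaks, was the liver in which Slc1a3 was the only gene of the 9 with an exonic peak, and Slc1a2 and Aldoc therefore entered no HFD comparison above that uses KO HFD. Without it, both were called in 4 of 4 KO HFD livers. The log2 difference for KO HFD-Pio against KO HFD was then 0.43 ± 0.188 (SE) for Slc1a2 (unadjusted p = 0.0276, adjusted p = 0.996 by limma) and −0.17 ± 0.181 for Aldoc (adjusted p = 0.996 by limma). KO Control replicate 4 had fewer peaks, 7630, and had exonic peaks in Slc1a3, Slc1a2 and Aldoc.

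No summit from any of the 40 libraries lay between 250 bases before and 50 bases after the start of the longest coding transcript of any of the 9 genes. This window is narrow. Summits a little further into a gene fell outside it, such as chr2:102659009 in the 5′ UTR of Slc1a2 (1 KO liver). Another was chr7:30914107 in an intron of Mag (1 WT liver). The share of all genes without a summit in this window is not given here, so nothing is read from its absence. RXR pairs bind repeats of the hexamer AGGTCA, and its direct repeat with a 1-base spacer, AGGTCANAGGTCA, is the usual PPARγ-RXR element. Both strands were searched in windows of 100 bases on each side of a summit. An exact AGGTCA lay in 7.14% of the 154 windows at KO summits in Slc1a3, 9.62% of 104 in Slc1a2, and 1.75% of 57 in Aldoc, against 12.9% of the windows at all 449942 KO summits and 8.88% at all 165040 WT summits. The repeat with at most 2 mismatches lay in 2 windows of Slc1a3, 1 of Slc1a2 and 0 of Aldoc, and in 2.69% of all KO windows, where a match to the repeat can also count as a match to the hexamer. Windows of 1 gene overlap between livers, so these shares are a description of the letters only.

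The genes whose profile over the 20 KO livers was most like the mean profile of the 9 genes were Prr12, Pak6, Fmr1, Prdm2 and Jund, with a Pearson correlation of log2(fold enrichment + 1) of 0.896, 0.889, 0.857, 0.855 and 0.852. Each was called in 19 of the 20 livers. A liver with no exonic peak entered as 0, so a shared uncalled liver can weigh heavily in these correlations. The mean profile also holds Cnp, whose calls cannot be assigned to it. It further holds Mbp, Mobp, Mag, Mog and Gfap, each called in at most 1 KO liver. The points share libraries and depth, and the mean profile itself had a correlation of 0.76 with the log2 number of peaks in the library.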

How the data were processed

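RXR ChIP-Seq of 40 mouse livers (8 groups of 5) was analysed from the peak lists that the authors deposited; the 40 input samples entered as the control of each list. Per the file headers the authors called peaks in each liver with MACS2 2.1.1.20160309, keeping 1 tag per position, at a p-value cutoff of 0.001 for WT and a q-value cutoff of 0.05 for KO; the submitters' processing notes name Novoalign and mm10. The deposited columns used are the fold enrichment ratio over input, the pileup signal at the summit and the −log10 p-value and q-value. The second deposited format held the same intervals in 40 of 40 libraries and was not used again. No 2 libraries shared more than 0.566% of their intervals with identical start and end. The authors' differential binding test needs reads and was not rerun.

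Summits were placed in exons and introns of GENCODE M21. The 9 genes, the marker lists and the tests were chosen with earlier results of these data known. Tests were limma 3.58.1 (R 4.3.3; trended, moderated) on log2 fold enrichment and two-sided Fisher's exact tests (scipy 1.17.1), Benjamini-Hochberg adjusted over all genes tested, threshold 0.05. Both were also run on simulated data whose planted changes were larger than those of the 9 genes. That run does not speak to small differences. Text values are the 9 genes, per list the counts and the 3 genes called in most livers, and the 5 genes most alike, by number of libraries; other list genes were named after their values were seen, and 1 list gene is not reported here. Replicates are separate livers per the labels. Sequences were read from RefSeq's GRCm38 assembly.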

Additional observations from a re-analysis of the deposited data

Results flagged for a closer look

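In KO HFD replicate 5 the number of the 9 genes with an exonic peak was 1, below the 4 of each other KO HFD liver, and in KO HFD-Pio replicate 4 it was 3, below the 4 of each other liver of that group. KO HFD-Pio replicate 4 differed from those livers only by Cnp, whose calls cannot be assigned to it. In WT HFD replicate 1 the number was 1, where the other WT HFD livers had 0. Of the neuronal genes, 17 of 18 were called in KO HFD-Pio replicate 3, where the other livers of the group had 18, and 4 were called in WT HFD-Pio replicate 1, where the others had 0 or 1. Each is a liver far from the other 4 of its group, and such a gap arises by chance in about 5% of groups; counts that are nearly all equal meet it with a step of 1.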

How the results depend on the processing

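The count of the 9 genes called in at least 3 of 5 livers was 3 in KO Control, 4 in the other KO groups and 0 in WT. Leaving out any 1 liver kept these counts. With −log10 q of at least 5 it fell to 1 in KO Control, 2 in KO Pio, 2 in KO HFD and 1 in KO HFD-Pio. With a fold enrichment of at least 5 it was 2 in KO Control, 2 in KO Pio and 2 in KO HFD. Lists shortened to the shortest of the genotype gave 3 in KO Pio, 2 in KO HFD and 2 in KO HFD-Pio. A call in all 5 livers left 1 in KO HFD and 3 in KO HFD-Pio. Groups not named for a setting were not all unchanged. In WT, a call in at least 1 liver gave 2 for Pio, 1 for HFD and 1 for HFD-Pio, and peaks anywhere in the gene body gave 1 in WT Pio and 1 in WT HFD-Pio, which is Cnp. The share of summits in the 9 gene bodies that lay in an exon was 75.0% in KO Control, 68.7% in KO Pio, 68.1% in KO HFD and 66.1% in KO HFD-Pio. Leaving out 1 liver gave 72.7 to 76.8%, 66.3 to 70.6%, 66.7 to 69.4% and 62.8 to 69.7%. Without Cnp, an alternative chosen after seeing the data like the exclusion of shared exons, it was 93.0%, 85.0%, 82.9% and 81.9%. With −log10 q of at least 5 it was 65.0% in KO Control, 51.4% in KO Pio and 59.3% in KO HFD, where the strongest peaks are those of Dnajc7 exons that lie in Cnp introns.

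Limma called 0 genes in each comparison, and 13 in KO Pio against KO Control when the strongest peak of the gene body was used, none of them among the 9. Leaving out 1 liver gave 0 to 1 genes for KO Pio against KO Control and 0 to 1 for KO HFD against KO Control, again none of the 9. The log2 differences that changed sign were all near 0. For Slc1a3 in KO HFD minus KO Control it was 0.0064 without centring, 0.012 without KO HFD replicate 1 and 0.0094 without KO HFD replicate 3. For Slc1a2 it was −0.00195 in KO Pio minus KO Control without KO Pio replicate 2, and in KO HFD-Pio minus KO Pio −0.026 without centring and −0.018 without KO Pio replicate 1. Over the livers left out in turn these 3 differences ranged from −0.123 to 0.0123, −0.00195 to 0.181 and −0.0182 to 0.173. Livers with the same replicate number did not deviate together (mean correlation of deviations −0.0018 over 30 pairs), and with the replicate number as a block limma called 0 genes in each comparison. Fisher's exact test called 0 genes under each alternative run. The smallest p the test can give with so few livers did not pass the adjustment, so these counts of 0 say nothing about stability.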
